A study of Mus musculus with 8 samples.

Results

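Retinoids are vitamin A and its derivatives, and the liver is the main organ that takes them up, stores them and releases them. Hepatocytes load retinol on retinol-binding protein for transport in the blood, stellate cells store it as retinyl esters, and dehydrogenases convert retinol to retinal and retinal to retinoic acid. Retinoic acid activates nuclear receptors of the RAR family and is cleared by cytochromes P450 of the CYP26 family, whose genes it induces. The data below cover 9 genes of this pathway in mouse liver: the dehydrogenase genes Rdh9, Rdh16, Dhrs3, Aldh1a1 and Aldh1a7, the retinoic acid hydroxylase Cyp26a1, the retinol carrier Rbp4, the storage enzyme Lrat and the receptor Rarb. They were read through every probe set that the platform's annotation gives to these symbols, 11 in all (10 of them of 1 gene), and are 9 of 18193 genes with a probe set of their own. The genes were chosen by symbol, with the signals of these same 8 arrays in view, so their differences between arms and days are given as a description.

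Livers came from 2 arms of mice labelled Metff/ff:ERCre+/+, which carry a floxed Met gene and a tamoxifen-dependent Cre. In the MET KO + EGFRi arm, 5 daily injections of tamoxifen were given to delete Met in all tissues, and canertinib, which inhibits EGFR, was mixed into the diet for a dose of 80 mg/kg/day from 1 day before TCPOBOP. The control arm was littermates of the same genotype that received corn oil in place of tamoxifen. Both arms received TCPOBOP by gavage at 3 mg/kg, an agonist of the nuclear receptor CAR that drives hepatocyte growth and division in mice, and livers were taken on days 0, 1, 2 and 5. Whether the day 0 mice received TCPOBOP is not stated. No group of the later days went without it. In changes from day 0, TCPOBOP therefore cannot be told apart from the gavage, from time or, in MET KO + EGFRi, from time since canertinib began. Age, sex, the number of mice and the promoter of the Cre gene are not given in the labels, and deletion of Met, tamoxifen and canertinib cannot be told apart in this design.

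RNA of each group was pooled and read on 1 Affymetrix array, so 8 arrays stand for 8 groups and no spread between animals can be measured. In bulk liver RNA, fewer cells of a type and less RNA per cell cannot be told apart. The median signal of the arrays ran from 224 to 251. Met itself had signals of 1502, 1049, 2034 and 1358 in MET KO + EGFRi on days 0, 1, 2 and 5. In control it had 1444, 926, 1335.5 and 1149, lower on each day. Since the labels do not name the deleted exon, the Met signal is no check of the knockout. Egfr had 4694, 4714, 3846 and 3336 in MET KO + EGFRi, against 3017.5, 3539, 3497 and 2766 in control. Cyp2b10, the CAR target used to check TCPOBOP, had 32027 to 48292 in the 3 later MET KO + EGFRi arrays and 356 at day 0, against 33939 to 45578 and 444 in control. Albumin, the defining hepatocyte product, had 37254 to 77082 over the 8 arrays, so the tissue carried its label's marker. The summed signals of 9 hepatocyte markers ran from 288037 to 385176 in MET KO + EGFRi and from 247430 to 392601 in control. Those of 10 Kupffer cell markers were 28776, 29635.5, 46914 and 51177 in MET KO + EGFRi on days 0, 1, 2 and 5. Control had 24395, 15990.0, 21209 and 35563, lower on each day, and all 10 markers had a higher mean in MET KO + EGFRi. Summed signals of 10 endothelial markers ran from 12282 to 16620.3 in MET KO + EGFRi and from 10733 to 15855 in control. Those of 3 cholangiocyte markers ran from 2308 to 2509 in MET KO + EGFRi and from 1992 to 2759 in control. Those of 5 monocyte and neutrophil markers did not overlap, at 8188 to 11539.8 in MET KO + EGFRi and 3660.5 to 5123 in control. Without S100a8 and S100a9, left out after their values were seen, the ranges of the other 3 overlapped. On days 0, 1, 2 and 5 these 3 summed to 4199.6, 4814, 5898 and 7981 in MET KO + EGFRi. In control they summed to 4242.5, 2788, 3699 and 4051, so the arms were near level on day 0 only. MET KO + EGFRi was higher on days 1, 2 and 5. No marker was at 0, and the part of these cells in the results below was not tested.

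RefSeq promoter windows, from 250 bases before to 50 after an annotated start in GRCm38.p6, were at hand for all 9 genes (13 windows). The first pair is shown because retinoic acid receptors bind direct repeats of a 6-base half-site, and a repeat with 5 bases between the half-sites lies close to the start of both Cyp26a1 and Rarb. The half-site AGGTCA was searched on both strands, together with its variants AGTTCA, known from the Rarb gene, GGTTCA, found beside it there, and also GGGTCA. The half-sites found stand in capitals. In Cyp26a1 (chr19:37697726-37697845, + strand) the repeat reads on the opposite strand, from 32 to 16 bases before the start, and in Rarb (chr14:16575460-16575579, - strand) it lies from 53 to 37 bases before it.
Cyp26a1: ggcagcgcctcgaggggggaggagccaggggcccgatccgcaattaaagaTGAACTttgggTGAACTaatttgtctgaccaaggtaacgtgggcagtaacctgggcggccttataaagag
Rarb: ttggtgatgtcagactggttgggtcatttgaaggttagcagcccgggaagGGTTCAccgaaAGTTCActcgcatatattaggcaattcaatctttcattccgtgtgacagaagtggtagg
Of 32544 different promoter windows of this length, 32 (0.0983%) held such a repeat. Because AGTTCA and GGTTCA were taken from the Rarb element, the match in Rarb was fixed in advance, and nothing is read from that share for Rarb. Nor is anything read from it for Cyp26a1, since the pair is shown because both genes hold the repeat. Both half-sites in Cyp26a1 are AGTTCA on the opposite strand. With 2 or 4 bases between the half-sites, the spacings found in 88 (0.27%) and 27 (0.083%) of the windows, none of the 13 windows of these genes held a match. A match is a string of letters and no measure of binding.

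The second set is shown because 4 of the dehydrogenase genes form neighbouring pairs. Aldh1a1 (chr19:20492583-20643463) and Aldh1a7 (chr19:20692953-20727556) lie 49.5 kb apart on opposite strands. In windows at one of the 2 annotated starts of Aldh1a1 (chr19:20601844-20601993, + strand) and at that of Aldh1a7 (chr19:20727531-20727680, - strand), an identical run of 65 bases, in capitals, begins 94 bases before the start of each.
Aldh1a1: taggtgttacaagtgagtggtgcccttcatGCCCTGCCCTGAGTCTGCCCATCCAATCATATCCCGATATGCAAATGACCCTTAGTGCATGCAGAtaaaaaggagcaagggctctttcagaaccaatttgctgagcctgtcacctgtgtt
Aldh1a7: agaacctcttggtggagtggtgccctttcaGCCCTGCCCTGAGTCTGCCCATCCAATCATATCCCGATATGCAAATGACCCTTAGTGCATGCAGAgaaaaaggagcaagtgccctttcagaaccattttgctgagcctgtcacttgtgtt
Over their aligned windows the pair was identical at 221 of 315 positions (70.2%). Rdh9 (chr10:127776405-127792697) and Rdh16 (chr10:127801090-127815846), both on the + strand, lie 8.4 kb apart. Their windows (chr10:127776305-127776454 and chr10:127801053-127801202) share a run of 43 bases, again in capitals. It begins 2 bases after the start of Rdh9 and 33 bases before the start on which the Rdh16 window was placed. That Rdh16 start lies inside the gene's span given above, and so does the run.
Rdh9: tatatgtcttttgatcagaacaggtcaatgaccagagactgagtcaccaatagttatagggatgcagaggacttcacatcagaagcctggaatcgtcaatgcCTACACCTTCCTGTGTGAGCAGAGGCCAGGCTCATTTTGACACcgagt
Rdh16: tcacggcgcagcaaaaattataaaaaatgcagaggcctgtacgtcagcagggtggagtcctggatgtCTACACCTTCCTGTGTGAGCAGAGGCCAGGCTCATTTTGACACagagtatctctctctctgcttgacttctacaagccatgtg
Their windows were identical at 203 of 339 aligned positions (59.9%).

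**Figure D1:**
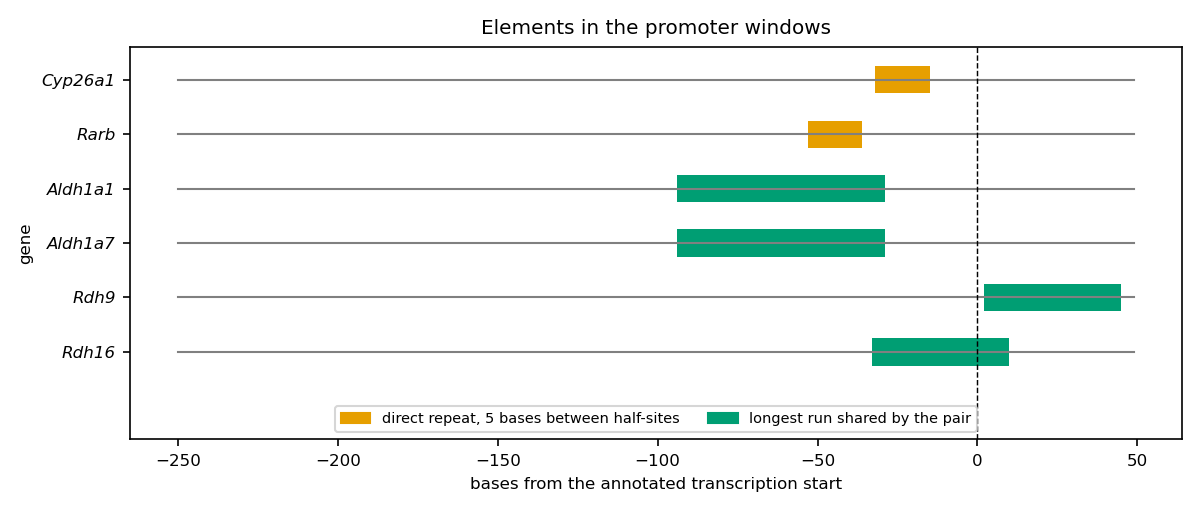
Elements in the promoter windows of 6 genes, in bases from the annotated start (x axis, 1 line per gene). Orange boxes mark the direct repeat with 5 bases between its half-sites in Cyp26a1 and Rarb, and green boxes the longest run shared by Aldh1a1 with Aldh1a7 (65 bases) and by Rdh9 with Rdh16 (43 bases).

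After TCPOBOP the 2 retinol dehydrogenases fell, while Cyp26a1 and Aldh1a7 rose, in both arms. Rdh9 and Rdh16 stood below both day 0 arrays in all 6 later arrays, and Cyp26a1, Aldh1a1, Aldh1a7 and Rarb above both in all 6. Dhrs3 had later arrays on both sides of the day 0 values, and Rbp4 and Lrat had later arrays between them. No p-value of any of these genes is printed, and the test calls named further below are given as a description.

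Rdh9 encodes a short-chain dehydrogenase of cis-retinols and androgens, known in mouse as CRAD3. Its signals on days 0, 1, 2 and 5 were 3922, 316, 1103 and 1562 in MET KO + EGFRi, and 3954, 424, 727 and 376 in control. The arms started within 1% of each other and both fell at day 1, 12.4-fold below day 0 in MET KO + EGFRi and 9.33-fold in control. By day 5 the MET KO + EGFRi signal had come back to 2.51-fold below its day 0, while the control signal was 10.5-fold below. Over both arms the mean log2 change of the later days from day 0 was -2.49 with a standard error (SE) of 0.37. Each SE given here comes from limma, a linear model fitted across all genes tested. It draws a gene's variance towards that of genes of like signal, so the SE is not the gene's own spread alone. Its only probe set ends in _s_at, the platform's mark for one that can bind related RNAs.

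Rdh16, the neighbouring CRAD1 gene, had 868, 374, 472 and 283 in MET KO + EGFRi on days 0, 1, 2 and 5, and 1536, 342, 422 and 268 in control. The arms differed at day 0 and came to nearly the same level afterwards. The drop from day 0 to day 5 was thus 3.07-fold in MET KO + EGFRi and 5.73-fold in control, and the mean log2 change over both arms was -1.53 (SE 0.22). A further probe set, which the annotation assigns to both Rdh16 and the pseudogene Rdh18-ps, had 152 to 261 in MET KO + EGFRi and 121 to 217 in control, and cannot be given to 1 gene.

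Aldh1a1 encodes the main cytosolic retinal dehydrogenase of the liver, which makes retinoic acid. It had 11535, 19095, 20132 and 21462 in MET KO + EGFRi on days 0, 1, 2 and 5, and 15694, 30298, 28898 and 32025 in control. In each arm the later days lay close together, at 1.66- to 1.86-fold of day 0 in MET KO + EGFRi and 1.84- to 2.04-fold in control. The mean log2 change was 0.88 (SE 0.15), and 0.61 after quantile normalization, so its size depends on the scaling. Aldh1a7, its close paralogue, had 9314, 21559, 16649 and 25206 in MET KO + EGFRi, and 10175, 28571, 27672 and 32565 in control. Aldh1a7 stood at 1.79- to 2.71-fold of day 0 in MET KO + EGFRi and 2.72- to 3.20-fold in control (mean log2 change 1.34, SE 0.17). Quantile normalization gave a mean change of 1.11 for Aldh1a7. The 2 genes had a Pearson correlation of 0.94 over the 8 arrays, and how far each probe set also binds RNA of the other was not tested.

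Cyp26a1, which hydroxylates retinoic acid and so ends its signal, had 773, 2991, 3862 and 6453 in MET KO + EGFRi on days 0, 1, 2 and 5, and 1004.5, 3563, 1719 and 10626 in control. MET KO + EGFRi climbed at each step, while control dipped at day 2 before its highest value. By day 5 the signal was 8.35-fold that of day 0 in MET KO + EGFRi and 10.6-fold in control, and the mean log2 change was 2.14 (SE 0.32). Rarb, the retinoic acid receptor whose gene retinoic acid induces, had 474, 768, 741 and 689 in MET KO + EGFRi, and 655, 891, 971 and 805 in control. Its later signals were 1.45- to 1.62-fold those of day 0 in MET KO + EGFRi and 1.23- to 1.48-fold in control (mean log2 change 0.48, SE 0.15), a much smaller step than that of Cyp26a1, the other gene with the repeat printed above.

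Dhrs3, which reduces retinal back to retinol, had 2510.5, 1781, 3002 and 2501 in MET KO + EGFRi on days 0, 1, 2 and 5, and 3231, 3412, 3430.3 and 3997 in control (mean log2 change 0.04, SE 0.18). Rbp4, the plasma carrier of retinol, had 30857, 31905, 41445 and 43198 in MET KO + EGFRi, and 31249, 39169, 30983 and 43485 in control (mean log2 change 0.29, SE 0.18). The day 5 arrays of Rbp4 were the highest of their arm, and quantile normalization turned its mean change to -0.07. Lrat, which esterifies retinol for storage and is a marker of stellate cells, was near the median signal of the arrays and did not pass the filter on dim genes. Its brighter probe set had 130 to 252.5 in MET KO + EGFRi and 191 to 268 in control, and the other 118 to 241 in MET KO + EGFRi and 109 to 264.5 in control. Both Lrat probe sets had their highest MET KO + EGFRi signal on day 2 and their highest control signal on day 0. Summed signals of the 10 stellate markers that passed ran from 16085 to 20431 in MET KO + EGFRi and from 11595 to 14426 in control. Without decorin (Dcn), also left out after its values were seen, those of the other 9 overlapped. They were 9780, 9862, 10911 and 9174 in MET KO + EGFRi on days 0, 1, 2 and 5. Control had 10274, 9617, 8944 and 7691, so MET KO + EGFRi was lower on day 0 and higher on days 1, 2 and 5. The part of stellate cells in the Lrat values was not tested.

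**Figure D2:**
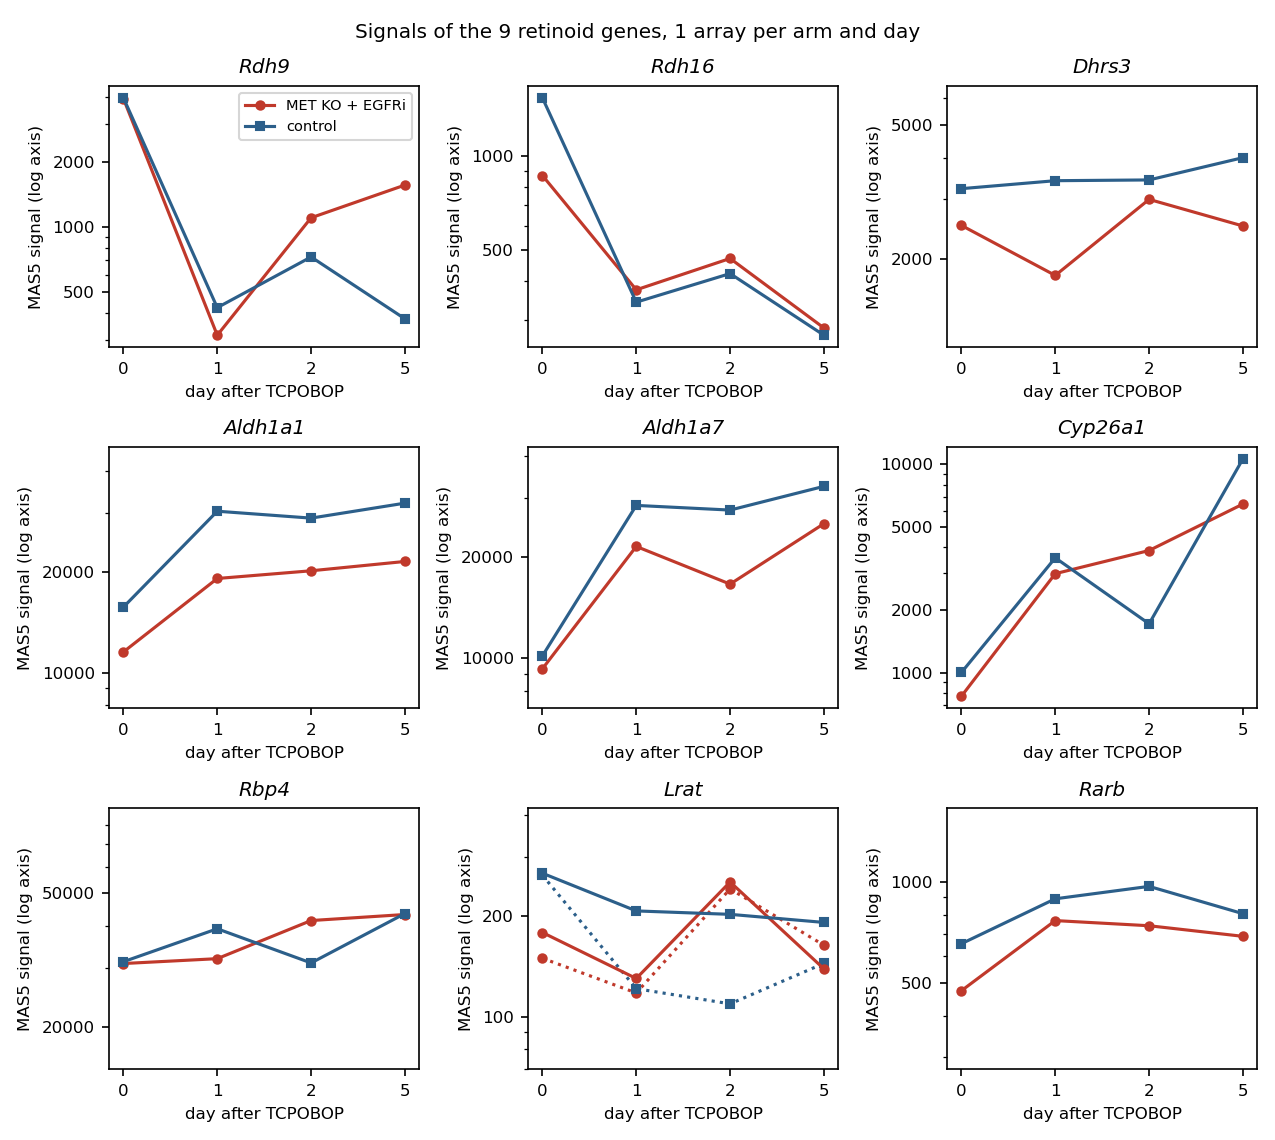
MAS5 signal (log axis) of the 9 genes on days 0, 1, 2 and 5, with 1 array per point, red circles for MET KO + EGFRi and blue squares for control. Lrat has 2 probe sets, the brighter one solid and the other dotted. Rdh9 falls in both arms and stands at 1562 in MET KO + EGFRi and 376 in control on day 5, while Aldh1a1, Aldh1a7, Dhrs3 and Rarb lie lower in MET KO + EGFRi on every day.

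limma, fitted across 12112 genes with arm and day as terms, called 4 of the 8 genes that passed the filter between the later days and day 0 (Benjamini-Hochberg adjusted p under 0.05). These were Cyp26a1 and Aldh1a7, higher, where 51 of all genes (0.421%) were called higher, and Rdh9 and Rdh16, lower, where 8 of all genes (0.0661%) were called lower. All 6 later arrays lay above both day 0 arrays for 4 of the 8 genes and for 5.8% of all genes, and below for 2 of the 8 and for 4.59% of all. Nothing is read from these shares, since the choice of the genes may have used this comparison. The calls did not withstand the loss of an array. Leaving out either array of day 0 or of day 1 left 0 of the 8 called, either array of day 2 left 2, and either of day 5 left 1, and without the filter on dim genes there were 0. The direction of all 4 was the same in each of these fits.

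**Figure D3:**
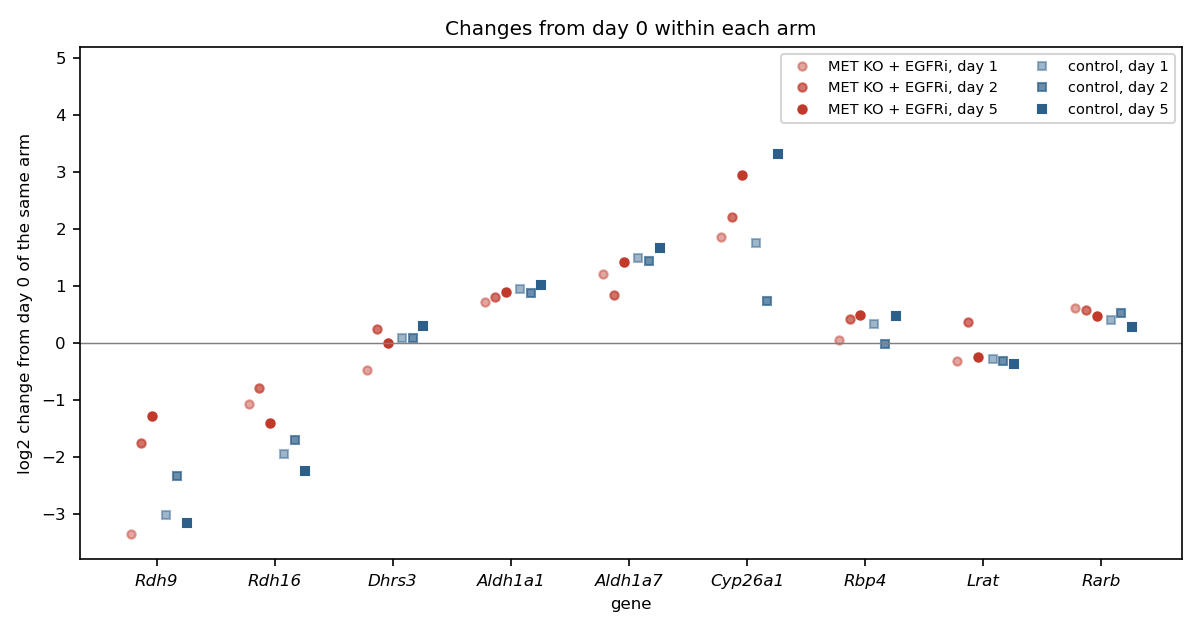
Log2 change of each gene from day 0 of its own arm (y axis) on days 1, 2 and 5, from pale to dark, for MET KO + EGFRi (red circles) and control (blue squares). Rdh9 and Rdh16 lie below 0 and Cyp26a1, Aldh1a1, Aldh1a7 and Rarb above 0 at all 6 points, and the 3 points of an arm share its day 0 array.

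Between the arms, 4 genes lay below control on each of the 4 days in MET KO + EGFRi: Aldh1a1, Aldh1a7, Dhrs3 and Rarb. The differences were modest, and the other 5 genes went both ways. Aldh1a1 had the steadiest difference, with log2 values of -0.44, -0.66, -0.52 and -0.58 on days 0, 1, 2 and 5 and a mean of -0.55 (SE 0.13). The standard deviation of its daily differences was 0.09, and the SE is limma's. In signal terms it stood at 0.735, 0.63, 0.697 and 0.67 of control, so the shortfall was already there at day 0. Aldh1a7 was lower by -0.13 at day 0 and by -0.41, -0.73 and -0.37 on the later days (mean -0.41, SE 0.14), so its arms were nearly level at the start. Dhrs3 differed most at day 1, at 0.522 of control, and least at day 2, at 0.875 (mean log2 difference -0.53, SE 0.15). Rarb lay between 0.724 and 0.861 of control (mean log2 difference -0.29, SE 0.13). On days 0, 1 and 2 the summed hepatocyte markers were higher in MET KO + EGFRi, at 288037, 331346 and 378488 against 252152, 307928 and 247430 in control. On day 5 they were lower, at 385176 against 392601. The single markers did not move together. On day 1, Fgb had 57675 in MET KO + EGFRi against 35392 in control, Tat 23900 against 16359 and Hnf4a 18354 against 12089. Apob was also higher that day, and Alb was near level at 50765 against 50479. Apoa1, Apoa2, Ttr and Cps1 were lower in MET KO + EGFRi on day 1. The part of hepatocyte content in the differences of the retinoid genes was not tested.

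Rdh9 and Cyp26a1 showed the widest single-day gaps. On day 5, the Rdh9 signal in MET KO + EGFRi was 4.16 times that in control (log2 difference 1.87 after adding 71 to each signal), against log2 differences of -0.01, -0.35 and 0.56 on days 0, 1 and 2. On day 2, the Cyp26a1 signal in MET KO + EGFRi was 2.25 times that in control (log2 difference 1.14 on the same scale), while on days 0, 1 and 5 it was lower, at 0.769, 0.839 and 0.607 of control. These were the only differences of at least 2-fold among the 8 genes on any day, the fold being taken on that scale. Of all genes, 2.88% passed that fold upwards on day 2 and 2.25% on day 5. Averaged over days, the log2 difference was 0.52 (SE 0.32) for Rdh9 and -0.04 (SE 0.28) for Cyp26a1. The standard deviations of their daily differences were 0.98 and 0.81, a wider spread than limma's SEs convey. Leaving out either array of day 5 left 0.06 for Rdh9, and leaving out either of day 2 left -0.44 for Cyp26a1.

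For Rdh16 the day 0 difference of -0.78 had no counterpart later, with 0.11, 0.14 and 0.06 on days 1, 2 and 5 (mean -0.12, SE 0.19). Without either array of day 0 the mean was 0.10. Rbp4 had -0.02, -0.30, 0.42 and -0.01, with a mean of 0.02 (SE 0.16) that turned to -0.09 after quantile normalization. Lrat had -0.44, -0.47, 0.24 and -0.32 on its brighter probe set.

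**Figure D4:**
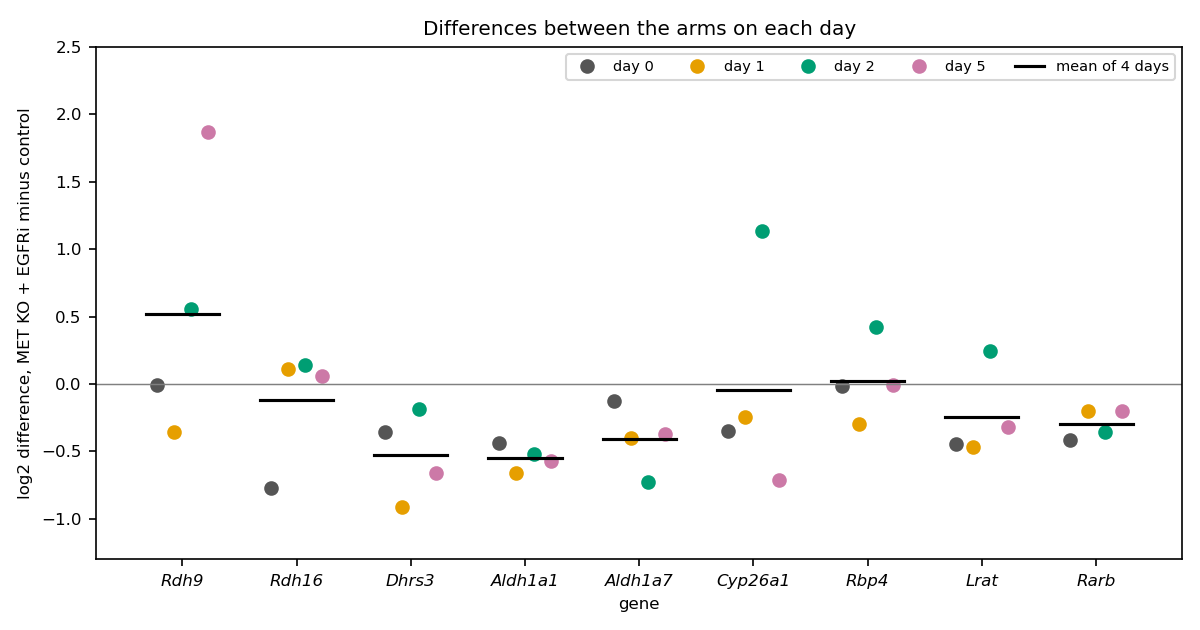
Log2 difference between MET KO + EGFRi and control for each gene on each of the 4 days (coloured points), with the mean of the days as a black line. The points of Aldh1a1, Aldh1a7, Dhrs3 and Rarb all lie below 0, and the single points furthest from 0 are Rdh9 on day 5 (1.87) and Cyp26a1 on day 2 (1.14).

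In limma's test of the arms, 0 of the 8 genes were called, against 70 of 12112 genes (0.578%). At an unadjusted p under 0.05, 4 of the 8 were lower and 0 higher, against 725 (5.99%) and 741 of all genes, and nothing is read from that count. MET KO + EGFRi was lower on 4 of 4 days for 4 of the 8 genes and for 10.3% of all genes. Nothing is read from these shares either, since the genes were chosen with these signals in view. The test of a difference in response, which asks whether the change from day 0 differed between the arms, called 0 of 12112 genes (0%), with 251 higher and 292 lower at an unadjusted p under 0.05. Rdh16 had the largest such difference for its error, a log2 value of 0.88 (SE 0.34), and Rdh9 had 0.70 (SE 0.75). With 1 array per group, gaps of the size of Rdh9 on day 5 rest on a single pair of pools and have no replicate check. The MET KO + EGFRi array of day 5 also had the highest ratio of 3′ to 5′ actin signal, a sign of RNA quality, at 2.36 against 1.57 to 1.90 on the other 7 arrays, and its part in the Rdh9 value was not tested.

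Across the rest of the pathway the medians lay close to those of all genes. Of 67 other retinoid genes, 59 had a probe set of their own and 42 passed the filter. The median log2 difference between the arms was 0.01 over these 42 genes and 0.0021 over all 12112 tested. The median change of the later days from day 0 was 0.11, and -0.02 over all genes. limma called 1 of the 42 between the arms, Pnpla3, and 2 between the later days and day 0, Fabp5 and Rarres1.

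Fabp5, a carrier of fatty acids that can also pass retinoic acid to the nucleus, fell after day 0. It had 5998, 2822, 1853 and 1281 in MET KO + EGFRi on days 0, 1, 2 and 5, and 4491, 1319, 1659 and 966 in control (mean log2 change -1.69, SE 0.19, limma adjusted p = 0.0159). Both arms were lower than their day 0 on all 3 later days, and MET KO + EGFRi was above control on 4 of 4 days without passing the test (log2 difference 0.50, limma adjusted p = 0.292). Fabp5 lost its call between days without any one of the 3 arrays named here: MET KO + EGFRi day 0, control day 0 and MET KO + EGFRi day 5 (adjusted p from 0.0207 to 0.147 over the 8 fits).

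Rarres1, named for its response to retinoids in human skin cells, rose. It had 2147, 6351, 3855 and 7549.9 in MET KO + EGFRi, and 958, 4506, 4606 and 4241 in control (mean log2 change 1.76, SE 0.25, limma adjusted p = 0.0347). All 6 later arrays were above both day 0 arrays. Leaving out 1 array kept its call in 2 of 8 fits, with adjusted p from 0.0151 to 0.306. Pnpla3, a lipase that acts on retinyl esters in human stellate cells, was below control on all 4 days, with 302, 449.9, 366 and 645.5 in MET KO + EGFRi against 602, 1871, 782 and 1496 in control (log2 difference -1.21, SE 0.19, limma adjusted p = 0.0422). It lost its call in all 8 fits that leave out 1 array, with adjusted p from 0.0827 to 0.153. Of the 8 other settings tried, 5 kept the call of Pnpla3 and 5 that of Rarres1.

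Among the other dehydrogenases, 14 passed the filter and 0 were called in either comparison, with a median log2 difference between the arms of 0.0050. Rdh16f2, a further relative of Rdh16, had 7825, 5300.0, 9852 and 5565 in MET KO + EGFRi on days 0, 1, 2 and 5, and 8712, 2053, 1922 and 904 in control. As with Rdh9, the arms were close at day 0 and the control signals were the lower ones on days 2 and 5. How far the probe sets of Rdh9, Rdh16 and Rdh16f2 also bind RNA of one another was not tested. The log2 difference in response was 2.22 (SE 0.49), with an unadjusted limma p of 0.00268 and an adjusted p of 0.785. Adh4, an alcohol dehydrogenase that can oxidise retinol, was below control on all 4 days, with 1748, 881, 1371 and 1571 in MET KO + EGFRi against 4383, 3417, 3163 and 2287 in control (log2 difference -1.21, limma adjusted p = 0.0598). Rdh11, known in human as a retinal reductase, was also lower on 4 of 4 days, with 619 to 1122 in MET KO + EGFRi against 1354 to 2679 in control (log2 difference -1.12, limma adjusted p = 0.121).

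In the step to retinoic acid, all 3 further genes that passed had a mean below control. The aldehyde oxidases Aox3 and Aox1, which can oxidise retinal, had mean log2 differences of -0.78 and -0.50 and were lower on 4 of 4 days, and Aldh8a1 had -0.47 and was lower on 3 (limma adjusted p of 0.127, 0.255 and 0.39). Their median of -0.50 is of the size of the difference of Aldh1a1, and none was called. Aox1 had 2101, 3024, 3668 and 3955 in MET KO + EGFRi on days 0, 1, 2 and 5, against 2562, 5647, 5882 and 4491 in control, so that the later days were above day 0 in both arms (mean log2 change 0.88, limma adjusted p = 0.111). Of the clearance genes, Cyp26b1 had widely scattered signals, from 72.9 to 822 in MET KO + EGFRi and from 92.8 to 519 in control. Cyp2c39 and Cyp2s1 had mean log2 differences between the arms of 0.19 and -0.05.

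Carriers, receptors and retinoid-responsive genes gave no further calls. Transthyretin (Ttr), which holds Rbp4 in the blood, had a mean log2 difference of 0.18, and Stra6l, a receptor for Rbp4 in liver, had -0.14. Stra6l had 3033, 3956, 2265 and 3148 in MET KO + EGFRi on days 0, 1, 2 and 5, and 1793, 4050.2, 4012 and 4299 in control, so only the control arm was above its day 0 on each later day. Of the receptors, Rarg was below control on all 4 days, with 376 to 519.8 in MET KO + EGFRi against 595 to 756 in control (log2 difference -0.62, limma adjusted p = 0.127). Rxrb, a partner of the RARs, had 722 to 1054 in MET KO + EGFRi against 320.1 to 742 in control (log2 difference 0.86, limma adjusted p = 0.21), and Rora, a related orphan receptor, had -0.24. The lipases Lpl and Pnpla2 were higher on 4 of 4 days (log2 differences 0.74 and 0.36, limma adjusted p of 0.141 and 0.317). Transglutaminase 2 (Tgm2), induced by retinoic acid in many cells, had 6443, 8677, 4139 and 3288 in MET KO + EGFRi on days 0, 1, 2 and 5, and 2290.3, 3175.5, 3759 and 5599 in control (log2 difference 0.57, limma adjusted p = 0.582). Its arms thus ran in opposite directions after day 1. Rarres2, the gene of the adipokine chemerin, was lower on 4 of 4 days (log2 difference -0.50, limma adjusted p = 0.244).

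**Figure D5:**
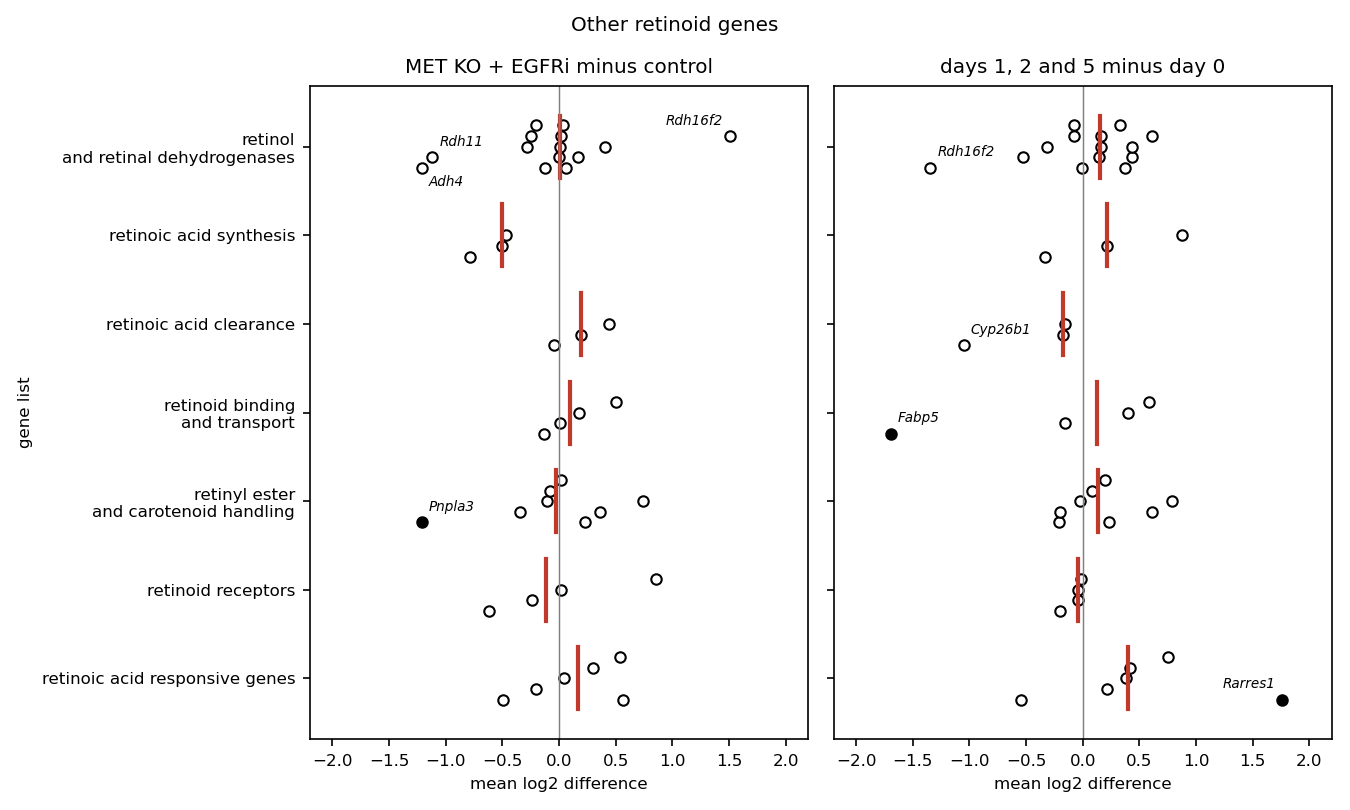
Mean log2 differences of 42 other retinoid genes by list, between MET KO + EGFRi and control (left) and between days 1, 2 and 5 and day 0 (right). Each circle is a gene, filled where limma's adjusted p was under 0.05 (Pnpla3 on the left, Fabp5 and Rarres1 on the right), and red bars are the medians of the lists.

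The genes whose course over the 8 arrays was most like that of the 3 retinoid genes with the widest range were found by Pearson correlation of log2 signals, as a description with no test. For Cyp26a1, which spanned 3.66 on the log2 scale, they were Cyp3a11 (r = 0.985), clusterin Clu (0.982) and apolipoprotein Apoa1 (0.98), with all 3 ordering the 8 arrays exactly as Cyp26a1 did. They spanned 1.08 to 1.18. Apoa1 had 35322, 47622, 60249.5 and 62718 in MET KO + EGFRi on days 0, 1, 2 and 5, and 39432, 54877, 41688 and 74975 in control, with the same dip at day 2 in control. For Rdh9, which spanned 3.38, the closest were Gtf2h1 (0.967), Eipr1 (0.951) and Igf2bp3 (0.95), and for Rdh16, which spanned 2.24, Plb1 (0.98), Mfn2 (0.976) and Tsc22d1 (0.954). The 6 genes like Rdh9 and Rdh16 spanned 0.21 to 0.79. All of these points share their arrays and the arrays' scaling.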

How the data were processed

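The deposited intensity values, 1 linear signal per probe set and array, were computed with MAS5 per the submitters' processing notes, from RNA of pooled livers (6 µg per array). The trimmed mean of each array is 500, so changes are relative to the array's total. Each kept gene was read from its brightest probe set as log2(signal + 71), the lower quartile of all signals, which understates folds of weak genes. Genes with a mean log2 signal under 8.24, the median of all probe sets, were left out (12112 of 18193 kept). Arm and day were additive terms in limma 3.58.1 (R 4.3.3) with trended variances, and the scripts were tested on simulated data. Alternatives changed the normalization, pseudocount, filter, choice of probe set and variance trend, or left out 1 array. Its p-values measure only the spread between pools of different days, and the number of arrays limits precision. The 9 genes and the lists were chosen with earlier results of these data known. Named further genes were those called, and the 3 of each list that differed most between arms. No gene coordinates other than RefSeq's on GRCm38.p6 were used.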

Additional observations from a re-analysis of the deposited data

Results flagged for a closer look

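Rxra, the RXR that partners both the retinoic acid receptors and CAR, was above its day 0 signal on the 3 later days in MET KO + EGFRi and below it on all 3 in control. It had 2638, 3625, 3487 and 2647 in MET KO + EGFRi on days 0, 1, 2 and 5, and 3689.5, 2888, 2519.5 and 3156 in control. The log2 difference in response was 0.65 (SE 0.37), with an adjusted p of 0.999 in limma's interaction test. The pattern was looked for in 50 retinoid genes and found in this one, while 9.85% of all 12112 genes showed it, and the day 5 rise in MET KO + EGFRi was 0.0048 on the log2 scale.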

How the results depend on the processing

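Each result rests on 1 pooled array per arm and day, and signal near the array median limits Lrat. Animals could not be paired because RNA of each group was pooled on 1 array, but with day as a term of the fit the arms were compared within each day. Without the filter on dim genes, limma called 28 of the genes between the arms, against 70, and 26 between the later days and day 0, against 59. The count between days was 35 with the mean of probe sets and 34 without a variance trend. Leaving out 1 array gave 20 to 57 genes between the arms and 4 to 49 between days. The difference in response had 0 calls in 8 settings and in the 6 fits that keep both day 0 arrays; without one of these it has no estimate. Of the 8 retinoid genes tested, 4 were called between days, against 0 without the filter, 2 with the mean of probe sets, 1 without a variance trend and 0 to 2 without 1 array. Of the 42 other retinoid genes, 1 was called between the arms, against 0 with the median as pseudocount, 0 without the filter, 0 without a variance trend, 2 with a filter at the upper quartile and 0 to 1 without 1 array. Between days 2 of these were called, against 1 without the filter, 1 with the mean of probe sets, 1 without a variance trend and 0 to 2 without 1 array. Without probe sets ending in _s_at or _x_at, 0 of Rdh9, Rdh16, Dhrs3, Aldh1a1, Aldh1a7, Cyp26a1, Rbp4 and Rarb differed 2-fold between the arms on day 5, against 1, because Rdh9 has no other probe set. Apart from that, the cause of these shifts was not tested.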
